A study of Mus musculus with 9 samples.

Results

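The genes described here are 34 enzymes that make, interconvert or recycle purine and pyrimidine nucleotides. They were taken by symbol, by a rule that uses no measured value though earlier results of these data were known when it was written, from the 55536 gene IDs of the count table. All 34 were matched, and all 34 passed the filter on low counts that left 15720 genes for testing. The data are RNA sequencing counts of primary mouse myoblasts, the dividing precursors of muscle fibres, taken from mice with floxed Uqcrfs1 alleles. Uqcrfs1 encodes the Rieske protein, a catalytic subunit of mitochondrial complex III. All 9 libraries came from floxed cells infected in culture with an adenovirus, seeded 72 h later and treated 24 h after that for 5 days. The 3 knockout oxybutynin libraries came from cells given Cre virus (uqcrfs1-/-) and 7.5 µM oxybutynin, a muscarinic receptor antagonist, in DMSO. The 3 knockout vehicle libraries came from Cre-infected cells given DMSO, and the 3 floxed vehicle libraries (uqcrfs1+/+, floxed) from cells given a green fluorescent protein virus and DMSO. No floxed cells received oxybutynin, genotype went together with the virus, and Cre acted only in cells the virus reached. The labels do not say whether replicates were separate cultures or animals, so a p-value here reflects library-to-library spread only, and that spread may be technical. The study asked whether oxybutynin restores the proliferation of complex III-deficient myoblasts.

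Dividing cells build pyrimidines by way of orotate and purines by way of inosine monophosphate (IMP), both on phosphoribosyl pyrophosphate (PRPP), and they also recycle bases and nucleosides by salvage. The pyrimidine route passes through the mitochondrial inner membrane, where dihydroorotate dehydrogenase (Dhodh) hands electrons to ubiquinone, and complex III reoxidises ubiquinol. Ribonucleotide reductase and thymidylate synthase then convert ribonucleotides into the deoxynucleotides used in S phase, and many of these genes are known targets of MYC, E2F and ATF4.

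Uqcrfs1 had 2.56 ± 0.437 counts-per-million (CPM) in knockout oxybutynin, 2.45 ± 0.356 in knockout vehicle and 79.6 ± 3.67 in floxed vehicle libraries (SD, n = 3 each), which fits all 9 labels. Library totals ran from 19604971 to 26226949 counts. The 34 genes together took between 0.302% and 0.317% of the counts of every library. Mitochondrially encoded transcripts took 1.58 to 2.12% of counts in knockout oxybutynin, 1.95 to 2.71% in knockout vehicle and 3.07 to 3.14% in floxed vehicle libraries. The small nuclear RNA Rn7sk took 3.36 to 3.98%, 2.36 to 3.59% and 1.93 to 2.10% in the same order of groups. The summed level of 8 myoblast markers was 3645 to 3925 CPM in knockout oxybutynin, 2941 to 3760 in knockout vehicle and 2908 to 3027 in floxed vehicle libraries, with Chodl at 0 throughout. That sum was mostly Myod1 and Des. Of the 7 tested markers, 3 rose and 2 fell in knockout vehicle against floxed vehicle, against 29.9% and 33.4% of all tested genes. The falls were those of Cdh15 (1.84-fold) and Myf5 (1.31-fold). The 8 leukocyte markers summed to 18.8 to 21.1, 16.4 to 19.4 and 10.0 to 11.0 CPM in the same order of groups, with Ptprc at or below 0.344 CPM in every library. The 7 fibroblast markers summed to 255 to 290, 287 to 290 and 272 to 291 CPM, with Lum at 0. Within that list Col1a1 (2.57-fold) and Ly6a (2.07-fold) rose in knockout vehicle against floxed vehicle, while Col3a1, the most abundant, was at 201, 225 and 256 CPM. The 5 endothelial markers summed to 8.85 to 11.1, 8.53 to 9.47 and 4.96 to 6.36 CPM, and the 5 smooth muscle markers to 30.4 to 32.1, 37.4 to 43.5 and 47.8 to 50.3 CPM. Schwann cell and adipocyte markers summed to 2.93 CPM or less in every library. The part of other cell types in the changes below was not tested. In such bulk samples, fewer cells of a type and less RNA per cell cannot be told apart.

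Among the deoxynucleotide genes, 5 of 6 fell with the knockout, against 33.4% of all genes, and the upstream sequence of 3 of them is shown so that their windows can be compared. With the trend of fold change on GC content and transcript length removed, 3 of the 6 were lower, against 30.8% of all genes. Of the 3 shown, Tyms was then lower, Rrm1 higher and Rrm2 not called. They are Tyms, which makes thymidylate, and Rrm1 and Rrm2, the large and small subunits of ribonucleotide reductase. Each run is RefSeq sequence of GRCm38.p6, 5′ to 3′ on the gene's own strand. It holds the bases up to the 5′-most listed start, less 13 bases of Rrm2 that lie inside the GENCODE gene. Capitals mark CACGTG, the E-box that MYC and USF factors read, and CCAAT, the site of NF-Y, found on either strand.
Tyms, chr5:30073626-30073875, minus strand: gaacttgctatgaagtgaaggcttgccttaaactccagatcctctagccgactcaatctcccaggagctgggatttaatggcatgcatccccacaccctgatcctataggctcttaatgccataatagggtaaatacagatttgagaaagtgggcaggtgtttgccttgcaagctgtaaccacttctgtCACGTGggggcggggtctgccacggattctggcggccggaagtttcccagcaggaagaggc
Rrm1, chr7:102441445-102441694, plus strand: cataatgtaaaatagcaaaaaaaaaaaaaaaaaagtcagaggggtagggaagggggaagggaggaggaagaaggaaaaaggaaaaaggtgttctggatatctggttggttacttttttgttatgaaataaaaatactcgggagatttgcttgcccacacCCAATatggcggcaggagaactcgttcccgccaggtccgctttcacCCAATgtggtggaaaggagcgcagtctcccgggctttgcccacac
Rrm2, chr12:24708004-24708240, plus strand: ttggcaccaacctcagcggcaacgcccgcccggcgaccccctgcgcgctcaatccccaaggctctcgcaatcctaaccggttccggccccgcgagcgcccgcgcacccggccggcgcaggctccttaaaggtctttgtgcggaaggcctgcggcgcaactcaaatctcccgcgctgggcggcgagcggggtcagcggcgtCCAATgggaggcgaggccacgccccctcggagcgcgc

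Upstream windows of 250 bases were listed for 33 of the 34 genes, and Pfas had no entry. They end at the 5′-most listed RefSeq start, and some lie inside the GENCODE gene. Those of Dut, Ctps2, Guk1 and Uckl1 do so wholly, and several others in part. The E-box CACGTG stood in 5 of 33 windows (15.2%), those of Atic, Impdh2, Nme1, Paics and Tyms, against 6.04% of 27025 mouse windows of that length. The E-boxes of Impdh2 and Nme1 lie inside the GENCODE gene, and that of Atic overlaps its start. CCAAT stood in 8 of 33 (24.2%), against 34.5% of all windows. The E2F letters TTTCCCGC or TTTGGCGC stood in 1 window of 33, that of Ppat, which held 2 matches, against 1.35% of all. The ATF4 letters TGATGNAA stood in 1 window of 33, that of Prps1, against 3.53% of all. Both strands were read, and none of the matches printed above overlap. A match is a description of the letters, and a window without one says nothing of the factor.

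The knockout moved these genes in both directions. Thymidylate synthase and the entry enzyme of purine synthesis were lower, and Ctps2, Aprt and Uckl1 were higher, with or without the correction for base composition described below. Of the 34 genes, 8 rose and 13 fell in knockout vehicle against floxed vehicle libraries at an adjusted p under 0.05 in edgeR's quasi-likelihood test. That is 61.8% of them called, against 63.3% of all 15720 tested genes (29.9% higher and 33.4% lower), so the share is near the background. Their median log2 fold change was -0.01, as was that of all tested genes. The ranges of the groups did not overlap for 21 of the 34, against 66.7% of all genes. Fold changes of all genes followed GC content in these libraries. A fit with offsets that took out the trend of each library on GC content and exon length kept 12 of the 21 calls with their sign, turned 3 to the opposite sign and lost 6, and in all it called 10 of the 34 higher and 13 lower, against 28.3% and 30.8% of all genes. Without knockout vehicle replicate 3 there were 8 higher and 9 lower, against 57.9% of 16097 genes. The plot of fold changes with and without that trend shows both values for each gene, and they are given below wherever they differ in call.

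**Figure D1:**
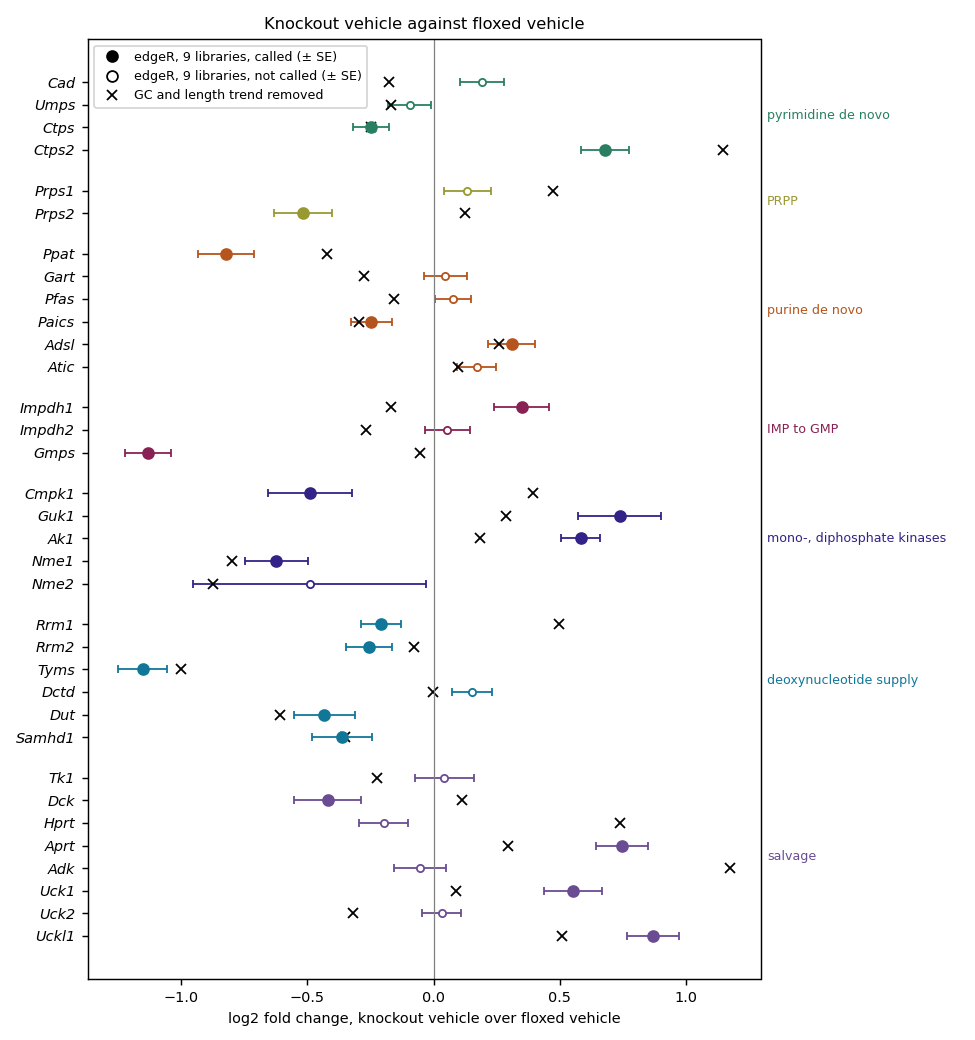
Log2 fold change (± SE) of each of the 34 genes in knockout vehicle over floxed vehicle libraries, grouped by role, with filled circles for called genes and crosses for the fit without the GC and length trend. Tyms, Ppat, Uckl1 and Ctps2 stayed on their side of 0 under both fits, while Gmps moved to -0.05 and Rrm1 to 0.50.

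The deoxynucleotide group held 5 falls, no rise and 1 gene not called, against 33.4% lower and 29.9% higher among all genes. With the GC and length trend removed it held 3 falls and 1 rise, against 30.8% and 28.3% of all genes. Tyms was at 26.7, 24.9 and 29.2 CPM in knockout oxybutynin, 31.1, 25.9 and 25.5 in knockout vehicle and 60.3, 61.7 and 61.1 in floxed vehicle libraries. All 6 knockout libraries lay below every floxed library, and the knockout groups overlapped each other. Tyms thus fell 2.22-fold in knockout vehicle against floxed vehicle (log2 fold change -1.15 ± 0.10 SE, edgeR adjusted p = 1.86e-08), and by 1.00 on the log2 scale with the GC and length trend removed. Tyms lies on chromosome 5 (30058202 to 30073617, minus strand, GRCm38), and 8.01% of the 50-base words of its longest transcript also occur in other genes. Dut, which removes dUTP and so supplies the substrate of Tyms, fell by 0.43 ± 0.12 (adjusted p = 0.0051) and by 0.61 with the trend removed. Samhd1, which breaks deoxynucleotide triphosphates down, fell by 0.36 ± 0.12 (adjusted p = 0.0124). Dctd, which deaminates dCMP to dUMP, was at 53.0 ± 2.22 CPM in knockout vehicle and 47.6 ± 1.06 in floxed vehicle libraries and was not called (0.15 ± 0.08, adjusted p = 0.1).

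The subunits of ribonucleotide reductase moved less than Tyms. Rrm1 was at 191, 180 and 196 CPM in knockout oxybutynin, 201, 220 and 185 in knockout vehicle and 233, 240 and 227 in floxed vehicle libraries. Every knockout library was below every floxed one. Rrm1 fell 1.15-fold in knockout vehicle (-0.21 ± 0.08, adjusted p = 0.0312), yet was higher, by 0.50, with the GC and length trend removed (adjusted p = 6.34e-07), so its direction depends on that step. Rrm2 was at 191, 193 and 202 CPM in knockout oxybutynin, 238, 182 and 204 in knockout vehicle and 235, 256 and 255 in floxed vehicle libraries. Knockout vehicle replicate 1 overlapped the floxed range, and the other 2 lay below it. Rrm2 fell 1.19-fold (-0.26 ± 0.09, adjusted p = 0.0201), with -0.08 and no call once the trend was removed. Without knockout vehicle replicate 3, which stood closest to the oxybutynin libraries, the adjusted p-values were 0.0888 for Rrm1, 0.0501 for Rrm2 and 0.0692 for Samhd1, so none of these 3 was called, which left Tyms and Dut as the 2 falls of the group, while Dctd was then called higher (0.18, adjusted p = 0.04). Over the 9 fits that each left out 1 library, Rrm1 was not called in 6 (adjusted p up to 0.125) and Rrm2 in 4 (up to 0.0752), while Tyms and Dut were called in all 9.

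**Figure D2:**
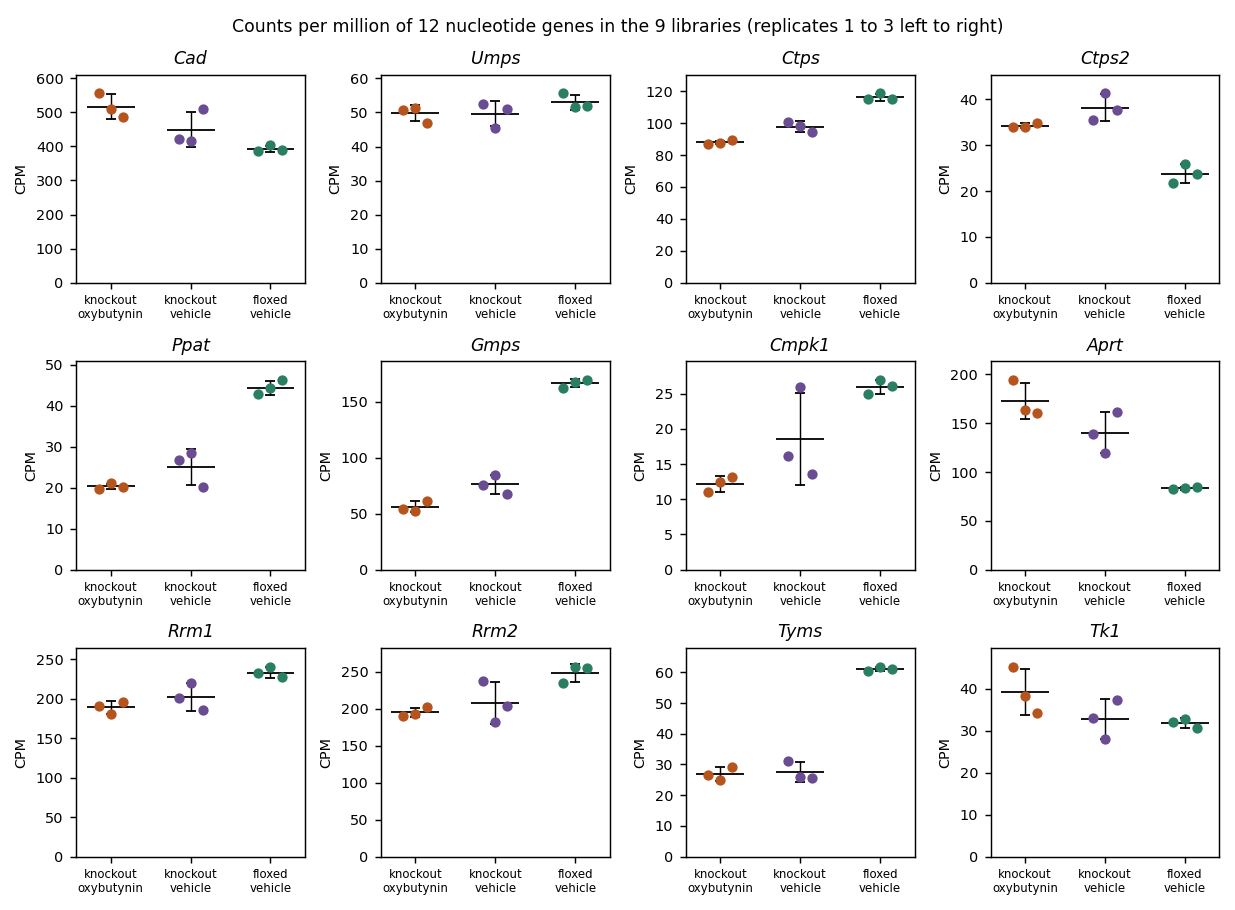
CPM of 12 of the genes in each of the 9 libraries (points, replicates 1 to 3 left to right), with the group mean (line) and SD (bar) and every axis starting at 0. Tyms, Gmps and Ppat were lower, and Aprt and Ctps2 higher, in all 6 knockout libraries than in any floxed library.

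Replication genes were read beside this group. Of 14 such genes, 6 fell and 2 rose with the knockout, against 33.4% and 29.9% of all genes. The helicase subunit Mcm4 (-0.94 ± 0.09, adjusted p = 5.24e-08) and the sliding clamp Pcna (-0.61 ± 0.10, adjusted p = 5.73e-05) fell. Cdt1, which loads the helicase at origins, rose by a log2 fold change of 0.95 ± 0.09 (adjusted p = 4.49e-08), or 0.45 with the trend removed (adjusted p = 6.24e-06). In all, 9 fell and 1 rose with the trend removed, against 30.8% and 28.3% of all genes. Without knockout vehicle replicate 3, 7 fell and 1 rose, where 57.9% of 16097 genes were called in either direction. Among 8 tested regulators, E2f2 (-2.01 ± 0.12), E2f8 (-1.04 ± 0.10) and E2f7 (-0.81 ± 0.09) fell, as did E2f3 and E2f4, while Atf4 (1.13 ± 0.09), E2f1 (0.69 ± 0.09) and Myc (0.22 ± 0.09) rose. Of all genes, 33.4% fell and 29.9% rose. E2f1 kept its call with the trend removed (0.18, adjusted p = 0.0308), whereas Myc was at -0.14 and not called, nor was it called without knockout vehicle replicate 3 (0.21, adjusted p = 0.0669). Whether the levels of these factors bear on the nucleotide genes was not tested.

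In pyrimidine synthesis, the opening and closing enzymes were not called in the fit used throughout and the CTP synthases moved apart. Cad, which carries the opening steps in a multifunctional protein, was at 555, 510 and 485 CPM in knockout oxybutynin, 422, 416 and 509 in knockout vehicle and 387, 403 and 390 in floxed vehicle libraries. Each knockout library was above each floxed one, but the difference of knockout vehicle from floxed vehicle missed the threshold (0.19 ± 0.09, adjusted p = 0.0665). With the GC and length trend removed Cad was lower instead, at -0.17 (adjusted p = 0.0211), and it was called higher without knockout vehicle replicate 1 or 2 (adjusted p = 0.00772 at the lowest of the 9 such fits). Umps, which makes UMP from orotate, was at 50.7, 51.5 and 47.0 CPM in knockout oxybutynin, 52.4, 45.4 and 51.0 in knockout vehicle and 55.6, 51.6 and 51.8 in floxed vehicle libraries. Its knockout vehicle and floxed ranges overlapped (-0.09 ± 0.09, adjusted p = 0.35). Dhodh, the mitochondrial enzyme between Cad and Umps, is not among the 34 genes and was at 19.3 ± 1.38 CPM in knockout vehicle and 14.3 ± 0.918 in floxed vehicle libraries. It rose by a log2 fold change of 0.43 ± 0.11 (adjusted p = 0.00286), or 0.25 with the trend removed (adjusted p = 0.0391).

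CTP synthase, which aminates UTP, is encoded by Ctps on chromosome 4 (120539868 to 120570276, minus strand) and Ctps2 on chromosome X (162901238 to 163032508, plus strand), whose library values were chosen after they were seen. Ctps2 was at 33.9, 34.1 and 34.9 CPM in knockout oxybutynin, 35.5, 41.3 and 37.7 in knockout vehicle and 21.7, 25.9 and 23.8 in floxed vehicle libraries. Ctps was at 86.9, 87.6 and 89.2, then 101, 98.3 and 94.3, then 115, 119 and 115 CPM in the same order of groups. All 6 knockout libraries were above the floxed range for Ctps2 and below it for Ctps. Ctps2 rose 1.60-fold in knockout vehicle (0.68 ± 0.10, adjusted p = 8.52e-06) and by 1.15 on the log2 scale with the trend removed, while Ctps fell 1.19-fold (-0.25 ± 0.07, adjusted p = 0.00639) and by 0.25. The Ctps2 to Ctps ratio, in CPM per kb of exon, was 0.274 ± 0.00068 in knockout oxybutynin, 0.275 ± 0.0242 in knockout vehicle and 0.144 ± 0.0105 in floxed vehicle libraries, with no overlap between knockout and floxed. An exact two-sided permutation test of 3 libraries against 3 gave p = 0.1 for knockout vehicle against floxed vehicle, the smallest p it can give (0.15 after Benjamini-Hochberg adjustment over 15 ratio tests).

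**Figure D3:**
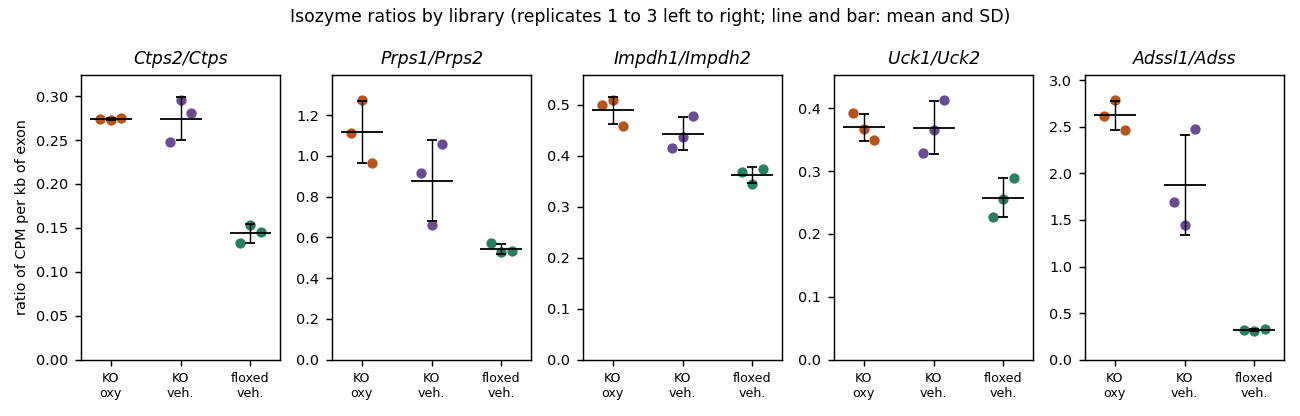
Ratio of CPM per kb of exon between isozymes in each library (points, replicates 1 to 3 left to right), with the group mean and SD, each axis starting at 0. The ratios of Ctps2 to Ctps, Prps1 to Prps2, Impdh1 to Impdh2, Uck1 to Uck2 and Adssl1 to Adss were higher in every knockout vehicle library than in any floxed library. Of all tested single genes, 66.7% did not overlap between these groups.

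Other isozyme pairs were read on the same scale. The ratio of Prps1 to Prps2, the synthetases that make PRPP, was 1.12 ± 0.154 in knockout oxybutynin, 0.879 ± 0.199 in knockout vehicle and 0.544 ± 0.0245 in floxed vehicle libraries. Prps2 was the member that moved, with a fall of 0.52 ± 0.12 in knockout vehicle (adjusted p = 0.000861), while Prps1 was at 0.13 ± 0.09 (adjusted p = 0.219). With the trend removed Prps2 was at 0.13 and not called, and Prps1 was higher by 0.47 (adjusted p = 0.000157). The ratio of Impdh1 to Impdh2 was 0.489 ± 0.0274, 0.444 ± 0.0319 and 0.363 ± 0.0152, and that of Uck1 to Uck2 was 0.369 ± 0.0214, 0.369 ± 0.0418 and 0.257 ± 0.0308, in the same order of groups. Knockout vehicle and floxed libraries did not overlap in any of these ratios, each with the smallest possible exact p of 0.1, two-sided. Of single genes, 66.7% did not overlap between these groups, and no such share was taken for ratios. The log2 differences of the Prps, Impdh and Uck ratios were 0.67, 0.29 and 0.52. With the trend removed they were 0.35, 0.10 and 0.41. Of the 50-base words, 73.9% of Impdh2 and 24.5% of Uck1 also occur in other genes, chiefly processed copies, and 10.1% of Prps1, so these counts are uncertain where reads were split.

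The entry enzyme and the GMP synthetase had the largest falls of the purine synthesis genes among the 34, though that of the GMP synthetase was lost with the GC and length trend removed. Ppat, the amidotransferase that commits PRPP to purines, was at 19.7, 21.0 and 20.2 CPM in knockout oxybutynin, 26.8, 28.4 and 20.2 in knockout vehicle and 42.8, 44.2 and 46.2 in floxed vehicle libraries. All 6 knockout libraries were below the floxed range, and knockout vehicle replicate 3 lay within the oxybutynin range. Ppat fell 1.77-fold in knockout vehicle (-0.82 ± 0.11, adjusted p = 5.76e-06) and by 0.42 with the trend removed (adjusted p = 0.000424). Paics, which carries a later carboxylation step and the joining of aspartate, starts from the opposite strand of the same stretch of chromosome 5. It fell by 0.25 ± 0.08 (adjusted p = 0.0141), with an adjusted p of 0.0537 without floxed vehicle replicate 2. The exons of Ppat and Paics share 272 bases on opposite strands, and whether the counting used strand is not stated. Adsl, which releases fumarate in the route to IMP and to AMP, rose by a log2 fold change of 0.31 ± 0.09 (adjusted p = 0.00786).

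The remaining genes of the route to IMP, the multifunctional Gart, Pfas and the closing enzyme Atic, were not called, with log2 fold changes of 0.05, 0.08 and 0.17. With the GC and length trend removed Gart (-0.28) and Pfas (-0.16) were lower and called, and Atic (0.10) was not. The IMP dehydrogenases open the GMP branch. Impdh1 rose by a log2 fold change of 0.35 ± 0.11 (adjusted p = 0.0105) but was lower, at -0.17, with the trend removed (adjusted p = 0.0355). It was not called without knockout vehicle replicate 3 (0.23, adjusted p = 0.0612) or floxed vehicle replicate 2, and Impdh2 was at 0.05 ± 0.09 (adjusted p = 0.608) and -0.27 (adjusted p = 0.00171).

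Gmps, which aminates XMP to GMP, was at 54.6, 52.0 and 61.6 CPM in knockout oxybutynin, 75.8, 85.1 and 67.7 in knockout vehicle and 163, 168 and 169 in floxed vehicle libraries. The 3 groups did not overlap one another. Gmps fell 2.19-fold in knockout vehicle (-1.13 ± 0.09, adjusted p = 1.14e-08), but by only 0.05 with the GC and length trend removed, and was then not called (adjusted p = 0.537). Its transcript has a GC content of 39.0%, among the lowest of the 34, which ran from 37.5% in Adk to 58.9% in Impdh1.

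Of the kinases that add the following phosphates, Guk1 and Ak1 rose and Cmpk1 and Nme1 fell. Cmpk1, which phosphorylates CMP and UMP, was at 11.0, 12.5 and 13.2 CPM in knockout oxybutynin, 16.1, 25.9 and 13.5 in knockout vehicle and 24.9, 26.9 and 26.1 in floxed vehicle libraries. Knockout vehicle replicate 2 lay inside the floxed range, and the other 2 lay well below it. The fall of 0.49 ± 0.17 (adjusted p = 0.0171) was not called without knockout vehicle replicate 3 (-0.30, adjusted p = 0.12) or replicate 1 (-0.36), and became a rise of 0.40 with the trend removed (adjusted p = 0.0079). Guk1, the guanylate kinase, rose by a log2 fold change of 0.74 ± 0.17 (adjusted p = 0.000932) and was at 0.29 and not called with the trend removed. Ak1, the adenylate kinase abundant in muscle fibres, was at 295 ± 12.1 CPM in knockout oxybutynin, 284 ± 22.1 in knockout vehicle and 190 ± 1.99 in floxed vehicle libraries. It rose by a log2 fold change of 0.58 ± 0.08 (adjusted p = 4.94e-06), or 0.18 with the trend removed (adjusted p = 0.00689). Of 9 differentiation genes read beside it, 7 fell and 2, Ckm and Acta1, rose, against 33.4% and 29.9% of all genes. The sum of those 9 genes was 3802 to 4533 CPM in knockout oxybutynin, 4186 to 4651 in knockout vehicle and 8887 to 10325 in floxed vehicle libraries. Most of that sum was Ttn, with 116825 exon bases, at a mean of 2334, 2449 and 7677 CPM in the same order of groups. Its log2 fold change in knockout vehicle was -1.65, or -0.32 with the trend removed (edgeR adjusted p = 0.00108). The part of these 9 genes in the change of Ak1 was not tested.

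Nme1, a nucleoside diphosphate kinase, fell by 0.62 ± 0.12 (adjusted p = 0.000305), and Nme2 was at 0.362 ± 0.177 CPM in knockout vehicle and 0.506 ± 0.132 in floxed vehicle libraries and not called. The read-through gene Gm20390, with 0 counts in all libraries, shares 48.9% of the exon bases of Nme2 and 12.5% of those of Nme1, so the levels of both are uncertain. Nme2 had the lowest level of the 34 genes in all 3 groups, whether in CPM or per kb of exon.

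Salvage genes held 3 rises and 1 fall among 8, against 29.9% higher and 33.4% lower among all genes. With the trend removed there were 4 rises and 1 fall, against 28.3% and 30.8% of all genes. Aprt, which recycles adenine, was at 194, 163 and 160 CPM in knockout oxybutynin, 139, 119 and 162 in knockout vehicle and 82.1, 83.4 and 85.1 in floxed vehicle libraries. All 6 knockout libraries were above the floxed range, and knockout vehicle replicate 3 lay within the oxybutynin range. Aprt rose 1.68-fold in knockout vehicle (0.75 ± 0.10, adjusted p = 6.97e-06), or by 0.30 on the log2 scale with the trend removed (adjusted p = 0.000412). Uckl1, a uridine-cytidine kinase homologue, was at 41.4 ± 3.71 CPM in knockout oxybutynin, 37.9 ± 3.68 in knockout vehicle and 20.7 ± 1.20 in floxed vehicle libraries. It rose 1.83-fold in knockout vehicle (0.87 ± 0.10, adjusted p = 1.1e-06) and by 0.51 with the trend removed (adjusted p = 3.86e-05). Uckl1 shares 459 exon bases with an antisense gene that had 77 counts in all. It also shares 67 with Zfp512b, a protein-coding gene on the same strand that had 8730 counts. How reads in the shared bases were counted is not stated. Uck1, a uridine-cytidine kinase, rose by a log2 fold change of 0.55 ± 0.12 (adjusted p = 0.000502), though not with the trend removed (0.09, adjusted p = 0.398), and Uck2 was at 0.03 ± 0.08 (adjusted p = 0.727) but lower with the trend removed (-0.32, adjusted p = 9.84e-05).

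Tk1, the cytosolic thymidine kinase of S phase, was at 45.1, 38.3 and 34.1 CPM in knockout oxybutynin, 33.1, 27.9 and 37.3 in knockout vehicle and 32.1, 32.8 and 30.5 in floxed vehicle libraries. The ranges of knockout vehicle and floxed libraries overlapped, and no difference was called (0.04 ± 0.12, adjusted p = 0.766). Dck, the deoxycytidine kinase, fell by 0.42 ± 0.13 (adjusted p = 0.0114) and was at 0.11 and not called with the trend removed. Hprt, which recycles hypoxanthine and guanine, and Adk, which phosphorylates adenosine, were at -0.20 ± 0.10 (adjusted p = 0.0858) and -0.05 ± 0.10 (adjusted p = 0.669). With the trend removed they were higher and called, at 0.74 and 1.17. Both have transcripts at the low end of the GC range, at 40.1% and 37.5%.

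Between the knockout groups, oxybutynin moved no gene of the 34 past the threshold, and the values ran along GC content. None was called in knockout oxybutynin against knockout vehicle by edgeR, where 2 genes of 15720 were (0.0127%). At an unadjusted p under 0.05 there were 10 of the 34, against 26% of all genes, and DESeq2 called 3, all lower (Prps2, Gmps and Cmpk1), against 12.2% of the 9320 genes to which it gave an adjusted p. The median log2 fold change was 0.03. The ranges of the groups did not overlap for 4 genes higher with oxybutynin (Pfas, Nme1, Dctd and Uck2) and 4 lower (Ctps, Ctps2, Gmps and Cmpk1), which is near the 22.1% of all genes. A value that misses the threshold does not show that the groups are alike, and the SE of a log2 fold change among the 34 was 0.07 or more.

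Gmps came closest to a call. It was 1.36-fold lower with oxybutynin (-0.44 ± 0.09, adjusted p = 0.0638, and 0.0481 without knockout vehicle replicate 2), with all 3 oxybutynin libraries below all 3 vehicle libraries, and Cmpk1 was 1.52-fold lower (-0.60 ± 0.17, adjusted p = 0.0802). Aprt was at 0.30 ± 0.10 (adjusted p = 0.106), Tk1 at 0.26 ± 0.12 (adjusted p = 0.172), Cad at 0.20 ± 0.09 (adjusted p = 0.162) and Ppat at -0.30 ± 0.11 (adjusted p = 0.127). The deoxynucleotide genes that fell with the knockout lay near 0 here, with Tyms at -0.03 ± 0.10 (adjusted p = 0.87), Rrm1 at -0.09 ± 0.08 (adjusted p = 0.471) and Rrm2 at -0.09 ± 0.09 (adjusted p = 0.535). Of the 6 deoxynucleotide genes 0 had an unadjusted p under 0.05, against 26% of all genes. Umps, of the pyrimidine route, was at 0.00 ± 0.09 (adjusted p = 0.983).

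These counts depend most on knockout vehicle replicate 3. Its level was nearer the oxybutynin mean than the mean of the other 2 vehicle libraries for 26 of the 34 genes, against 14 for replicate 1 and 9 for replicate 2. It lay within the oxybutynin range for 20 genes, against 6 and 2. Over all tested genes, however, replicate 2 was the vehicle library farthest from the others. The Pearson correlation of log2 CPM was 0.990 between replicates 1 and 3, against 0.985 and 0.986 for replicate 2 with replicates 1 and 3. Leaving out the vehicle library nearest the oxybutynin libraries tends to widen the differences by the choice itself. Without replicate 3, 6 of the 34 were higher (Cad, Atic, Impdh1, Nme1, Tk1 and Aprt) and 9 lower (Ctps, Prps2, Ppat, Paics, Gmps, Cmpk1, Dck, Hprt and Adk). The background was then 26% of 16097 genes, 11.6% higher and 14.4% lower. Without it, Aprt was at 0.42 (adjusted p = 0.00813), Gmps at -0.52 (adjusted p = 0.00248) and Tyms at -0.08 (adjusted p = 0.561). The median coefficient of variation of the 34 genes was 6.23% in knockout oxybutynin, 11.8% in knockout vehicle and 3.35% in floxed vehicle libraries.

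**Figure D4:**
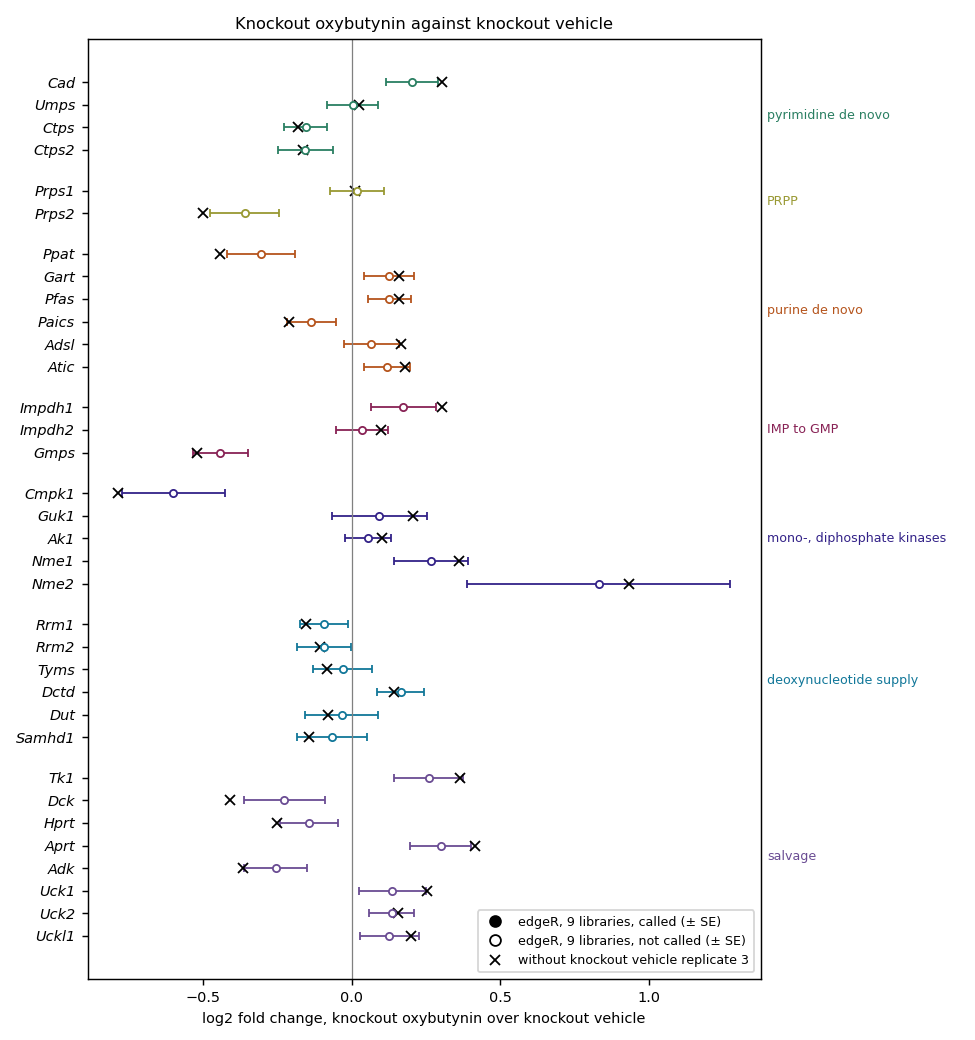
Log2 fold change (± SE) of each of the 34 genes in knockout oxybutynin over knockout vehicle libraries, with crosses for the fit without knockout vehicle replicate 3. No gene was called with all 9 libraries, and Gmps and Cmpk1 lay farther from 0 without that library.

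**Figure D5:**
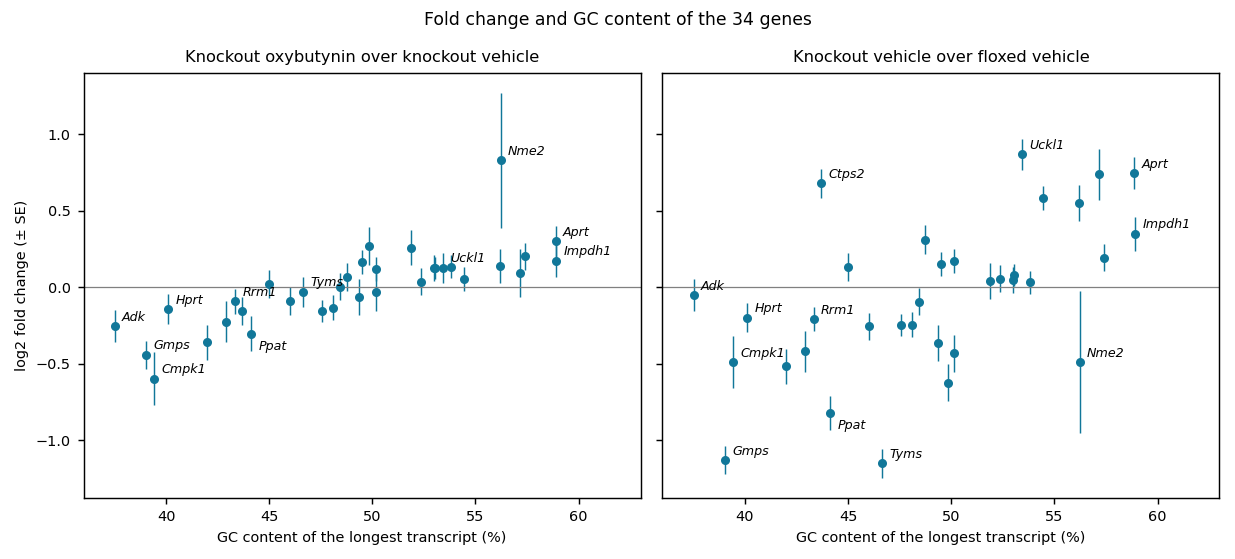
Log2 fold change (± SE) of the 34 genes against the GC content of their longest transcript (%), for knockout oxybutynin over knockout vehicle (left) and knockout vehicle over floxed vehicle (right). Gmps and Cmpk1 at the low end of GC content were negative in both panels, and Aprt and Impdh1 at the high end were positive.

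The plot of fold change against GC content shows how far the 2 measures ran together. Over the 34 genes, which share the same libraries, the Spearman correlation was 0.867 for knockout oxybutynin against knockout vehicle and 0.582 for knockout vehicle against floxed vehicle. Over 12976 protein-coding genes it was 0.690 and 0.542. With the GC and length trend removed, the correlation over the 34 genes was 0.295 and -0.296 in the same order. The fit thus did not clear GC content from these genes, and its sign turned in the second comparison. With the GC and length trend removed, no gene of the 34 was called between the knockout groups, and Gmps was at -0.22 (adjusted p = 0.196), Cmpk1 at -0.41 (adjusted p = 0.167) and Aprt at 0.07 (adjusted p = 0.632). The comparisons share the knockout vehicle libraries, so their values are not independent of each other. What sets the GC trend was not tested.

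Against floxed vehicle, 13 genes were higher and 15 lower in knockout oxybutynin libraries, 82.4% of the 34 against 71.9% of all tested genes (35.1% higher and 36.9% lower). The median log2 fold change was 0.12, against 0.00 over all genes, and the ranges of the groups did not overlap for 32 of the 34, against 78.9% of all genes. This comparison shares the floxed libraries with that of knockout vehicle. Past 2-fold, 4 of the 34 fell and 1 rose, against 20% and 10.8% of all genes. The falls were those of Gmps (2.97-fold, -1.57 ± 0.09), Tyms (2.27-fold, -1.18 ± 0.10), Ppat (2.18-fold, -1.13 ± 0.11) and Cmpk1 (2.13-fold, -1.09 ± 0.17), and the rise was that of Aprt (2.06-fold, 1.05 ± 0.10). All 5 had edgeR adjusted p-values of 2.28e-05 or lower. Cad was called here (0.39 ± 0.09, adjusted p = 0.000679), as was Tk1 (0.30 ± 0.12, adjusted p = 0.028), and neither was with the GC and length trend removed (-0.10 and -0.01). The fit without that trend kept 14 of the 28 calls with their sign and turned 4, those of Impdh1, Rrm1, Hprt and Adk, and it called 10 of the 34 higher and 12 lower in all, against 29.8% and 32.2% of all genes. Tyms (-0.90), Ppat (-0.56), Gmps (-0.27) and Aprt (0.37) kept theirs, and Cmpk1 did not (-0.02). Tk1 also lost its call without floxed vehicle replicate 1 or 3 or knockout oxybutynin replicate 1 (adjusted p up to 0.172).

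On a per-length scale, the order of the genes by level showed Rrm2 at the top in floxed vehicle libraries, with 89.8 CPM per kb of exon, followed by Ak1 (73.2), Aprt (51.7) and Cad (48.0). The length is that of all annotated exons merged, so the order depends in part on the annotation. It was 2771 bases for Rrm2, whose longest transcript has 2193, and 11012 for Rrm1, whose longest has 5475. In knockout vehicle libraries Ak1 (109.6) and Aprt (86.8) stood above Rrm2 (75.2), and in knockout oxybutynin libraries they were at 113.8 and 106.8, against 70.5 for Rrm2. Tyms was at 4.42, 4.51 and 10.0 CPM per kb in knockout oxybutynin, knockout vehicle and floxed vehicle libraries, and Ctps2 at 7.26, 8.09 and 5.05.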

How the data were processed

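RNA was sequenced in 9 libraries of 3 groups, from total RNA extracted with Trizol and a directional kit, per the labels' protocols. The deposited table holds unnormalized whole-number counts for each gene. Per the submitters' processing notes, the authors used STAR 2.7.0e with GRCm38, Trim Galore 0.6.0 and cutadapt, and FastQC and DESeq2 1.26.0 are also named, with no order given. The sources used here do not state the counting tool, its strand setting or the annotation release. All 55536 IDs are in GENCODE M21 (GRCm38). Replicates were numbered in accession order.

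Counts were tested with edgeR 4.0.16 in R 4.3.3 (filterByExpr, TMM scaling, quasi-likelihood test, 1 mean per group over 9 libraries, 6 residual degrees of freedom), with Benjamini-Hochberg adjustment over 15720 genes and calls at an adjusted p under 0.05. The code was tested on simulated data. CPM values use TMM-scaled library sizes, and values per kb divide by the merged length of all GENCODE exons of a gene. Errors are SD for levels (n = 3) and SE for log2 fold changes. Alternatives were DESeq2 1.42.0, other scalings, filters and thresholds, leaving out each library, protein-coding genes only, and offsets removing GC and length trends (splines of 5 degrees of freedom each). No replicate pair agreed within sampling noise (chi-square per degree of freedom 2.19 to 62.29).

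The 34 genes were taken by symbol from a list of the pathway that uses no measured value, but that list and the others were drawn up with earlier results of these data known. Values in every library are given for genes called with at least a 2-fold change, and for Cad, Umps, Rrm1, Rrm2, Tyms and Tk1.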

Additional observations from a re-analysis of the deposited data

How the results depend on the processing

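Among genes called with or without the GC and length trend, its removal turned the sign of 12 in knockout vehicle against floxed vehicle: Cad -0.17, Prps2 0.13, Gart -0.28, Pfas -0.16, Impdh1 -0.17, Impdh2 -0.27, Cmpk1 0.40, Rrm1 0.50, Dck 0.11, Hprt 0.74, Adk 1.17 and Uck2 -0.32. In knockout oxybutynin against floxed vehicle it turned 11: Cad -0.10, Gart -0.23, Pfas -0.079, Impdh1 -0.20, Impdh2 -0.33, Rrm1 0.63, Tk1 -0.013, Dck 0.056, Hprt 0.73, Adk 1.14 and Uck2 -0.27. The cause was not tested.

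For knockout vehicle against floxed vehicle, an adjusted p under 0.01 left 7 of the 34 higher and 7 lower. The share of all genes at that threshold is not given here. A change of at least 1.5-fold left 4 higher and 4 lower, with 6463 genes called in all. Leaving out 1 library gave 7 to 10 higher, 9 to 13 lower and 8950 to 10994 genes in all. For knockout oxybutynin against floxed vehicle, at least 1.5-fold left 5 higher and 6 lower, and the share of all genes at that step is not given here. Leaving out 1 library there gave 11 to 15 higher, 14 to 15 lower and 10444 to 12051 in all. Between the knockout groups, genes called in all numbered 7 under RLE scaling, 158 under library totals (Gmps lower, 1 of the 34), 1099 without a filter (1 of the 34 higher, 3 lower), 1134 by DESeq2 (3 of the 34 lower), 1 among protein-coding genes, and 0 with the trend removed or at an adjusted p under 0.01. Leaving out 1 library gave 0 to 4188 in all, 0 to 6 of the 34 higher and 0 to 9 lower, the highest of each without knockout vehicle replicate 3. No paired analysis was possible because the groups share no replicate number in the labels. Depth limits Nme2 most, at under 1 CPM.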

Other observations

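Other genes of nucleotide metabolism, 38 of 40 tested, held 15 rises and 11 falls in knockout vehicle against floxed vehicle libraries, by edgeR over all genes, against 29.9% higher and 33.4% lower among all tested genes. The genes named here were chosen after their values were seen. Ampd3, an AMP deaminase that returns AMP to IMP, was at 141, 149 and 137 CPM in knockout oxybutynin, 143, 140 and 142 in knockout vehicle and 19.6, 17.1 and 18.1 in floxed vehicle libraries. It rose 7.74-fold in knockout vehicle (2.95 ± 0.08, edgeR adjusted p = 1.15e-13), and by 2.79 on the log2 scale with the GC and length trend removed. The adenylosuccinate synthases, which open the way from IMP to AMP, moved apart. Adssl1, the muscle form, rose 2.67-fold in knockout vehicle (1.42 ± 0.10, adjusted p = 1.59e-09), and Adss, the form of other tissues, fell 2.11-fold (-1.08 ± 0.11, adjusted p = 1.55e-07), and both kept their calls with the trend removed (1.01 and -0.46). Their ratio per kb of exon was 2.62 ± 0.159 in knockout oxybutynin, 1.88 ± 0.536 in knockout vehicle and 0.321 ± 0.00897 in floxed vehicle libraries. The adenylate kinases Ak5 (1.34 ± 0.10, adjusted p = 2.27e-09) and Ak4, which is mitochondrial (1.34 ± 0.10, adjusted p = 3.28e-09), also rose. Between the knockout groups 0 of the 38 genes were called by edgeR, where 7 had an unadjusted p under 0.05, against 26% of all genes, and DESeq2 called 2, against 12.2%.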
